A study of Homo sapiens with 4 samples.

Results

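SW1990 is an established human pancreatic adenocarcinoma cell line, and the 2 libraries described here are its solvent controls. The cells, labelled as wild-type pancreas cancer cells of the line, had been kept for 48 h with DMSO, the solvent of the study's drug, and total RNA was then sequenced. They are the DMSO libraries of a series of 4, whose other 2 received the plant compound erianin and are not compared here. Both libraries were chosen by their labels, with no use of measured values. The labels do not say whether the 2 came from separate cultures, so the spread between them may be technical, and with 1 group there is no test. The identity of the line was taken from the labels and was not tested. Levels of CDKN2A, PDX1, GRHL2, EPCAM and CDH1, which could be set against reference profiles of the line, are given below. No such comparison was made.

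Pancreatic ductal adenocarcinoma arises in the exocrine pancreas and most often looks like the ductal lining, whose cells hold the simple keratins and make mucins. Its tumours and lines are commonly divided into a classical type, with genes of the differentiated gut lining, and a basal-like type, with genes of squamous and injured epithelium. Lines grown on plastic have no stroma, so RNA of fibroblasts, blood and vessel cells serves as a check of what a library holds.

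The deposited estimated counts added up to 63254725 in replicate 1 and 60798427 in replicate 2, over 25798 gene IDs. The table splits many genes over several rows, and the rows of a gene were summed. Levels are given as FPKM, fragments scaled to transcript length and sequencing depth, which can be set side by side between genes. Such comparisons are less certain for very short genes and for genes that share sequence. Of the gene IDs, 21583 and 21194 had a count. At a threshold of 1 FPKM, 10340 IDs (40.1%) passed in both libraries and 796 in one only. Of 15587 protein-coding IDs, 9222 (59.2%) passed in both. The median over all IDs was 0.46 and 0.45 FPKM. In both libraries 836 IDs reached 100 FPKM and 97 reached 1000 FPKM. The 10 genes with the most counts took 9.53% and 9.57% of all counts, and the top 100 took 31.3% and 32.0%. Transcripts of the mitochondrial genome took 5.71% and 5.55%, and the 83 genes of cytosolic ribosomal proteins and their paralogs 10.1% and 10.0%.

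The promoters of 4 strongly expressed genes show how unlike in sequence the starts of such genes can be. Each line gives the 120 bases before the RefSeq start of the gene, on the gene's own strand, from the RefSeq table on GRCh38.p14. Capitals mark CG dinucleotides, whose density defines a CpG island promoter. The windows are chr19:48965189-48965308 (plus strand) for FTL, chr7:134459101-134459220 (minus strand) for AKR1B1, chr6:34236753-34236872 (plus strand) for HMGA1 and chr10:17228121-17228240 (plus strand) for VIM.
FTL: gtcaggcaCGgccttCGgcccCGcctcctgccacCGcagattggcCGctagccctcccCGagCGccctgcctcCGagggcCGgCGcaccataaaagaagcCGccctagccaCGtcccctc
AKR1B1: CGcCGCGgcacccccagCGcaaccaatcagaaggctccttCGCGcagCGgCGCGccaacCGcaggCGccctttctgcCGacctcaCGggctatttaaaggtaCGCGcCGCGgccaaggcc
HMGA1: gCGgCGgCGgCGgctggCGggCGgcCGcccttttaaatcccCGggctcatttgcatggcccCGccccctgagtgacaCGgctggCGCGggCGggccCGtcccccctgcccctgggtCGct
VIM: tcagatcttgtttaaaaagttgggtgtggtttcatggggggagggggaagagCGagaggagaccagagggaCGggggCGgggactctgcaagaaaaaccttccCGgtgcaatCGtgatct
HMGA1 was chosen for display after its level had been seen. The RefSeq starts of AKR1B1 and FTL lie inside the genes as GENCODE draws them, so these windows overlap the gene models. In these 120 bases FTL held 12 CG, AKR1B1 17, HMGA1 15 and VIM 5. Over the 250 bases before the start the counts were 18, 28, 30 and 8.

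Across the RefSeq promoter table, CG content and the GC box were more frequent at genes above 1 FPKM than below it. Over the 250 bases before the start, the median number of CG was 21 for 659 protein-coding genes at a mean of 100 FPKM or more. It was 22 for the 2826 at 10 to 100 FPKM, 22 for the 4264 at 1 to 10 FPKM and 15 for the 4476 below 1 FPKM. The median over all 27305 promoters in the table was 11. The motif GGGCGG, the core of the GC box, was present on either strand in 69.7%, 73.0%, 69.1% and 53.3% of the protein-coding classes, and in 42.3% of the whole table. The motif TATAAA was present on either strand in 6.83%, 4.14%, 4.90% and 9.14% of the same classes, and in 11.1% of the table. The share with the GC box therefore did not climb with level among genes above 1 FPKM. These matches describe the letters of the windows only.

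The nuclear protein-coding genes of highest level were those of iron storage, glycolysis, ribosomes and the actin cytoskeleton. FTL, which encodes the ferritin light chain (GRCh38 chr19:48965301-48966878, plus strand), was at 10605 FPKM in replicate 1 and 10913 FPKM in replicate 2. FTH1, the ferritin heavy chain, was at 3672 and 3714 FPKM. The glycolytic genes GAPDH (chr12:6533927-6538374, plus strand) and ENO1 (chr1:8861000-8879250, minus strand) were at 10321 and 10613 FPKM and at 3040 and 3220 FPKM. All 4 genes were slightly higher in replicate 2, by less than 1.1-fold in each case.

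Ribosomal protein genes held 5 of the top 15 places. RPS2 was at 9673 and 10335 FPKM, and RPLP0, RPL8, RPL41 and RPL13A lay between 3453 and 4388 FPKM in both libraries. Genes of actin and its partners held 4 places. ACTB was at 5635 and 5284 FPKM, and ACTG1 at 3394 and 3372 FPKM. PFN1, which encodes the actin monomer binder profilin, was at 4816 and 4662 FPKM, and TMSB10, a thymosin that holds actin monomers, at 2909 and 2911 FPKM. LGALS1, a secreted galectin, was at 3519 and 3714 FPKM. Many ribosomal protein, actin and metabolic genes have processed copies in the genome: 70.9% of RPS2's sampled sequence and 34.1% of GAPDH's also occurs in another annotated gene, so reads can be divided between copies.

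AKR1B1 (chr7:134442350-134459284, minus strand), which encodes aldose reductase, the enzyme that turns glucose into sorbitol, ranked 6th of the nuclear protein-coding genes. It was at 4383 and 4506 FPKM, while its neighbour and paralog AKR1B10 was at 33.2 and 30.7 FPKM. The ratio of AKR1B1 to AKR1B10 was 139 ± 10.6 (SD, n = 2). EEF1A2, the elongation factor of muscle and nerve that some tumours express, was at 1936 and 2028 FPKM. Its ubiquitous paralog EEF1A1 was at 1717 and 1247 FPKM. By FPKM EEF1A2 was the higher in both libraries, at 1.13 and 1.63 times EEF1A1. Counts were 253312 and 247767 for EEF1A2 and 244682 and 210016 for EEF1A1. Of EEF1A1's sampled sequence 33.7% occurs in another annotated gene, against 3.65% of EEF1A2's. The split of EEF1A1 over its rows also shifted between the libraries, so the order of the pair is uncertain. HMGA1, a chromatin protein of embryonic and tumour cells, was at 1799 and 1944 FPKM. AKR1B10, EEF1A1, EEF1A2 and HMGA1 were chosen after their levels were known.

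**Figure D1:**
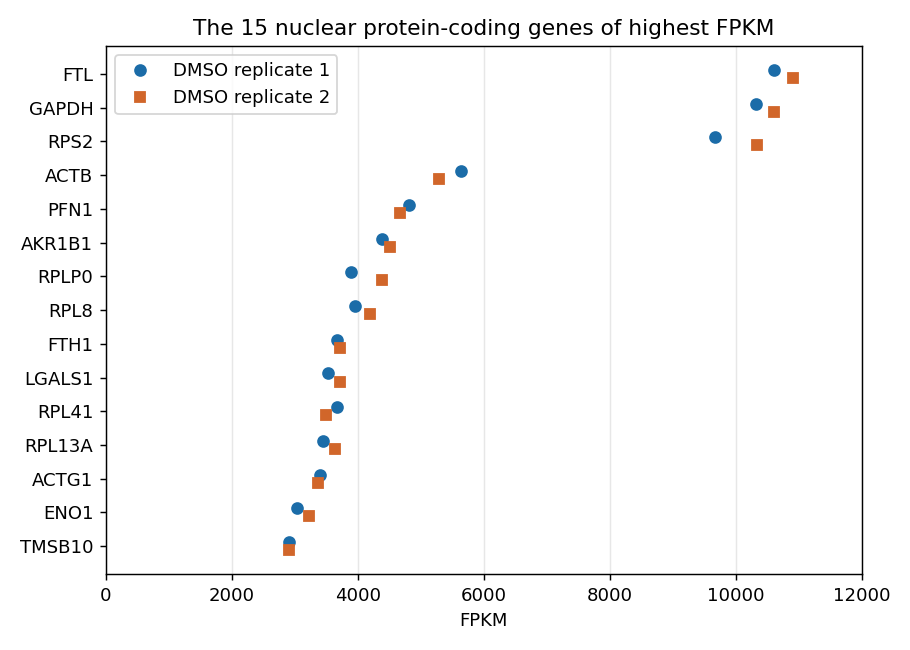
FPKM of the 15 nuclear protein-coding genes of highest mean level, with DMSO replicate 1 as circles and replicate 2 as squares. FTL, GAPDH and RPS2 lie between 9673 and 10913 FPKM in both libraries, and the rest lie between 2909 and 5635 FPKM.

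In the ductal and epithelial list the keratins stood far above the junction and epithelial control genes, which ranged widely. Of the list's 14 members, 10 were at 1 FPKM or more in both libraries (71.4%, against 59.2% of all protein-coding IDs). In both libraries 6 members were at 10 FPKM or more, and 4 of these, the keratins, at 100 FPKM or more. The list's median was 7.20 and 7.18 FPKM, against 0.46 and 0.45 FPKM for all IDs. KRT8 (chr12:52897187-52949954, minus strand) and KRT18 (chr12:52948871-52952901, plus strand), the keratin pair of simple epithelia, were at 2627 and 2613 FPKM and at 2225 and 2235 FPKM. These 2 genes overlap at their ends. Of their sampled sequence 34.9% and 42.7% occurs in another annotated gene, so their levels are uncertain by an amount not measured here. The ductal keratins KRT7 and KRT19 were at 1116 and 1131 FPKM and at 893 and 931 FPKM. The ratio of KRT8 to KRT18 was 1.17 ± 0.00803 and that of KRT7 to KRT19 was 1.23 ± 0.0244 (SD, n = 2).

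The other epithelial genes lay far below the keratins. The tight junction gene CLDN4 was at 36.3 and 33.2 FPKM, and was not the only member below the keratins to reach 10 FPKM in both libraries. ELF3, an epithelial transcription factor gene also on the list, was at 7.80 and 8.35 FPKM. Not every member is named here. CDH1, the gene of E-cadherin, was at 3.58 and 3.46 FPKM. EPCAM, the epithelial adhesion molecule, was at 2.93 and 1.48 FPKM, from 326 and 149 counts. It was among the genes beyond 2-fold apart in the comparison of the libraries below. The epithelial splicing factor gene ESRP2 was at 6.65 and 6.18 FPKM, whereas its paralog ESRP1 was at 0.17 and 0.11 FPKM. GRHL2, a transcription factor that maintains epithelia, had 4 counts in replicate 1 and 0 in replicate 2, and OVOL1, another such factor, had 0 counts in both. The keratins of ductal cells were thus high in both libraries. Members such as CLDN4 and ELF3 lay between, and GRHL2, OVOL1 and ESRP1 were at or near 0.

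Some mesenchymal genes were high beside the keratins. Of 12 on the list, 8 were at 1 FPKM or more in both libraries (66.7%, near the 59.2% of all protein-coding IDs), with a median of 2.95 and 3.02 FPKM. VIM (chr10:17228259-17237593, plus strand), the intermediate filament of mesenchymal cells, was at 908 and 893 FPKM, and S100A4, a calcium-binding protein of motile cells, at 530 and 502 FPKM. TGFBI, a matrix protein induced by TGF-beta, was at 32.2 and 33.4 FPKM. CDH2, N-cadherin, was at 11.99 and 11.7 FPKM, which was 3.36 ± 0.0208 times (SD, n = 2) the level of CDH1. VIM was 256 ± 3.11 times (SD, n = 2) the level of CDH1. Among the transcription factors of this programme, SNAI1 was at 4.74 and 3.85 FPKM and ZEB1 at 0.83 and 0.72 FPKM. TWIST1 had 3 counts in replicate 1 and 0 in replicate 2.

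The subtype lists gave no single picture. Of 24 classical genes 17 had a row, and 4 of these (23.5%) reached 1 FPKM in both libraries, against 59.2% of all protein-coding IDs. The list median was 0.09 and 0.04 FPKM. The 4 were the trefoil genes TFF2 (46.9 and 52.6 FPKM) and TFF1 (12 and 12.8 FPKM), AGR2, a disulfide isomerase of mucin-making cells (27.0 and 25.8 FPKM), and the tetraspanin gene TSPAN8 (10.8 and 9.53 FPKM). TFF3, BTNL8 and CLRN3 had 0 counts in both libraries. Of 25 basal-like genes 16 had a row, and 7 of these (43.8%, also below the 59.2%) reached 1 FPKM in both. The list median was 0.75 and 0.50 FPKM. The highest were KRT7, given above, the long noncoding RNA UCA1 (179 and 181 FPKM), the EGFR ligand gene AREG (45.4 and 40.01 FPKM) and the glucose transporter gene SLC2A1 (32.7 and 36.1 FPKM). KRT7 is also a ductal gene, and without it UCA1 is the only basal-like member above 100 FPKM. List members with no row were not analysed here.

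Of 17 pancreatic lineage factors with a row, 9 (52.9%, near the 59.2% of all protein-coding IDs) reached 1 FPKM in both libraries. ELF3, an epithelial ETS factor, was at 7.80 and 8.35 FPKM, the duct factor gene SOX9 at 7.25 and 6.52 FPKM, and GATA4 at 4.47 and 5.23 FPKM. PDX1, the factor that founds the pancreas, and TP63, the master factor of squamous cells, had 0 counts in both libraries. HNF4A, a factor of the classical programme, was at 0.10 FPKM in each.

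Of 14 keratins with a row, 9 (64.3%, near the 59.2% of all protein-coding IDs) reached 1 FPKM in both libraries. After the 4 above came KRT80, at 24.4 and 24.7 FPKM, so the fourth keratin stood 37.1 ± 0.736 times (SD, n = 2) above the fifth. Among mucins, the glycoproteins of the ductal surface and its secretions, only MUC1 of 9 with a row reached 1 FPKM in both, at 2.30 and 1.65 FPKM. This share of 11.1% was below the 59.2% of all protein-coding IDs. MUC5AC was at 0.18 and 0.27 FPKM, and MUC6 had 0 counts in both.

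Markers of other cell types were near 0, with a few exceptions. Of 5 acinar genes with a row, 0 reached 1 FPKM in both libraries, and their counts summed to 36 and 39. The 6 endocrine genes had no row and were not analysed here. Of 3 endothelial genes, 0 reached 1 FPKM in both, with summed counts of 70 and 56. Of 4 blood cell genes, CD68 alone did, at 101 and 103 FPKM. CD68 encodes a lysosomal protein abundant in macrophages and also made elsewhere, and 93.5% of its sampled sequence occurs in another annotated gene as well. PTPRC, the gene of the leukocyte antigen CD45, had 9 counts in replicate 1 and 0 in replicate 2.

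Of 7 fibroblast genes, 0 reached 1 FPKM in both libraries, but their counts summed to 2571 in replicate 1 and 849 in replicate 2. COL3A1, a fibrillar collagen, had 583 and 22 counts, DCN, the gene of the matrix proteoglycan decorin, 398 and 8, and COL1A1 612 and 201. COL1A2, with 486 and 283 counts, and FAP, with 27 and 14, lay within 2-fold. The libraries therefore differ beyond 2-fold in COL3A1, DCN and COL1A1, at levels of at most 1.60 FPKM. VIM and S100A4, given above, were at far higher levels than the fibroblast genes, so their similar levels in both libraries say nothing about these genes. The part of other cells in the mesenchymal transcripts was not tested.

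**Figure D2:**
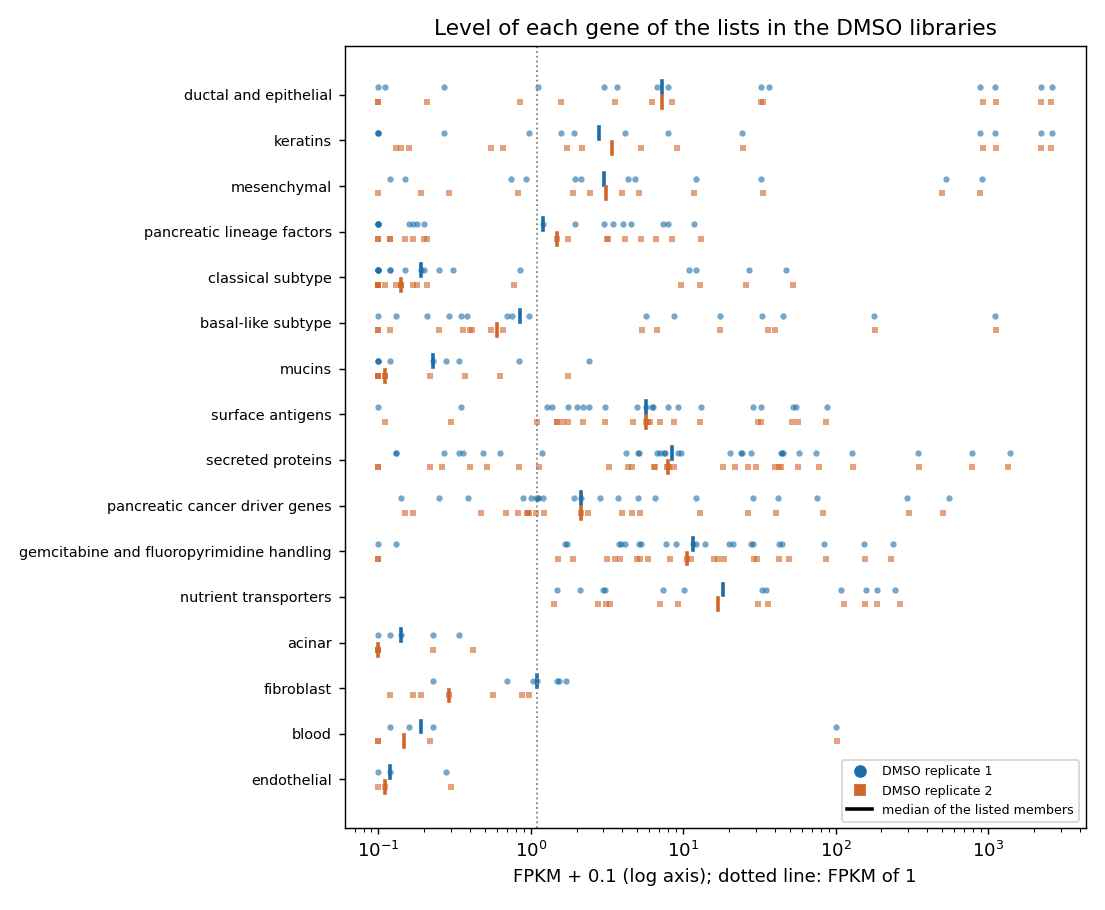
FPKM (log axis, 0.1 added) of each member of 16 gene lists, with replicate 1 as circles, replicate 2 as squares and the list's median in each library as a vertical line. Of the lists drawn, the nutrient transporters have the highest medians, at 18.2 and 16.8 FPKM, and the keratins of the epithelial list form a group apart at the right.

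Of 21 driver genes of pancreatic cancer, 11 (52.4%, against 59.2% of all protein-coding IDs) reached 1 FPKM in both libraries. GNAS, a G protein subunit gene mutated in mucinous lesions, was at 559 and 509 FPKM. CDKN2A (chr9:21967753-21995301, minus strand), which encodes an inhibitor of CDK4 and CDK6 and is often deleted in this cancer, was at 295 and 302 FPKM. This level was not compared with reference profiles of SW1990, so it is not given as an established trait of the line. Its neighbours CDKN2B and MTAP, often lost together with it, were at 6.43 and 5.11 FPKM and at 2.05 and 2.29 FPKM. STK11 was at 41.8 and 40.8 FPKM and MYC at 28.7 and 26.7 FPKM. SMAD4, the shared mediator of TGF-beta signals, was at 0.90 and 0.85 FPKM, and the receptor gene TGFBR2 at 0.15 and 0.07 FPKM. BRCA2 was at 0.04 and 0.05 FPKM. Levels say nothing of the genes' mutations, which were not analysed here.

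The AKT kinase genes and the gene of ASK1, kinases that the study's title concerns, were uneven in level. AKT1 (chr14:104769349-104795751, minus strand) was at 94.1 and 92.1 FPKM and AKT2 (chr19:40230317-40285536, minus strand) at 46.8 and 62.1 FPKM. MAP3K5 (chr6:136557047-136792518, minus strand), the gene of the stress kinase ASK1, was at 1.25 and 0.86 FPKM, on both sides of the threshold.

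Genes whose products handle gemcitabine and fluoropyrimidines, the nucleoside drugs of this cancer, were mostly present. Of 23 with a row, 21 (91.3%, against 59.2% of all protein-coding IDs) reached 1 FPKM in both libraries. The list median was 11.5 and 10.5 FPKM. The uptake transporter gene SLC29A1 was at 28.0 and 28.99 FPKM and DCK, the kinase that first activates gemcitabine, at 5.06 and 4.87 FPKM. CDA, the deaminase that inactivates it, was at 44.6 and 49.7 FPKM, or 9.51 ± 0.978 times (SD, n = 2) the level of DCK. The highest members were NME1, a nucleoside diphosphate kinase (237 and 230 FPKM), and TK1, thymidine kinase (153 and 155 FPKM), followed by TYMS, thymidylate synthase (84.2 and 86.0 FPKM). RRM2, the S phase subunit of ribonucleotide reductase, was at 19.8 and 16.8 FPKM and RRM1, the large subunit, at 5.19 and 5.15 FPKM. SLC28A1, a concentrative nucleoside transporter gene, had 0 counts in both.

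All 12 nutrient transporter genes with a row reached 1 FPKM in both libraries, against 59.2% of all protein-coding IDs. Their median was 18.2 and 16.8 FPKM. The glutamine transporter gene SLC1A5 was at 247 and 266 FPKM. The heavy chain gene SLC3A2 was at 188 and 186 FPKM and SLC7A5, its amino acid exchanging partner, at 109 and 113 FPKM. The lactate exporter gene SLC16A3 was at 158 and 157 FPKM.

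Of 21 surface antigen genes, 19 (90.5%, against 59.2% of all protein-coding IDs) reached 1 FPKM in both libraries. The list median was 5.63 FPKM in each. The hyaluronan receptor gene CD44 was highest at 88.4 and 86.4 FPKM. The receptor kinase gene EPHA2 followed at 55.0 and 56.4 FPKM and the glypican gene GPC1 at 52.8 and 52.0 FPKM. The checkpoint ligand gene CD274 was at 0.25 and 0.20 FPKM and below the threshold in both.

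Of 30 genes of secreted proteins, 23 (76.7%, against 59.2% of all protein-coding IDs) reached 1 FPKM in both. CTSD, cathepsin D, was at 1397 and 1351 FPKM, with 60.9% of its sampled sequence shared with another annotated gene. The protease inhibitor gene TIMP1 was at 791 and 785 FPKM, the galectin ligand gene LGALS3BP at 347 and 352 FPKM and TGFB1 at 129 in both libraries. The cytokine genes CXCL1, CXCL5 and CXCL8 had at most 20 counts in a library. The secreted list therefore held members on each side of the threshold.

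Of 14 tubulin genes, 12 (85.7%, against 59.2% of all protein-coding IDs) reached 1 FPKM in both libraries. TUBA1B made up 61.5% and 61.0% of the summed alpha-tubulin FPKM, and TUBB 57.2% and 57.6% of the summed beta-tubulin FPKM. The neuronal and tumour isotype TUBB3 made up 3.52% and 3.32% of the beta sum. Tubulin genes share sequence, 36.1% of it for TUBA1B and 79.6% for TUBB3, so these shares are uncertain by an amount not measured here.

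The libraries agreed closely over genes. For this comparison counts were scaled to CPM, the counts relative to library size, with TMM factors of 1.01 and 0.991. Among 12963 genes at a mean of 1 CPM or more, Spearman's correlation across genes was 0.990 and Pearson's on log2 values was 0.990, as a description in which all genes share the same libraries. Of these genes 93.8% lay within 1.5-fold. A difference beyond 2-fold was found for 230 genes (1.77%), 113 higher in replicate 2 (0.872%) and 117 higher in replicate 1 (0.903%). The common biological coefficient of variation in edgeR was 0.145, and 0.0896 over the 7618 genes at 10 CPM or more. The ratio of replicate 2 to replicate 1 rose slightly with GC content, by a log2 value of 0.05 per 10 percentage points (Spearman 0.28 across 7602 genes), and hardly moved with transcript length (Spearman -0.05).

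The spread between the libraries narrowed with level and stayed above counting error. The robust SD of the log2 ratio was 0.50 at 1 to 3 CPM, 0.28 at 3 to 10, 0.17 at 10 to 30, 0.11 at 30 to 100 and 0.07 from 100 CPM upward. Counting error alone would give 0.19, 0.11, 0.06, 0.04, 0.02 up to 1000 CPM and 0.01 above it. Of the genes at 1 to 3 CPM, 7.16% were beyond 2-fold, against 0.121% at 100 to 1000 CPM and 0 of 126 genes above 1000 CPM.

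**Figure D3:**
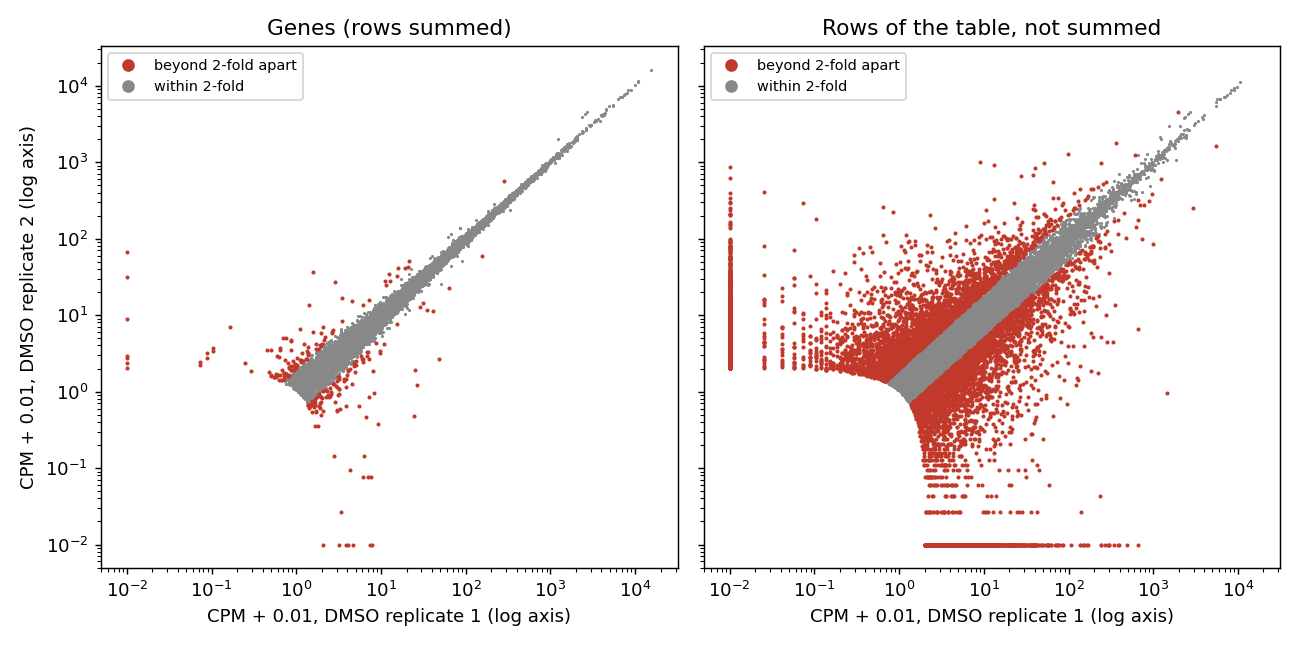
CPM of replicate 2 against replicate 1 (log axes, 0.01 added), for genes on the left and for single rows on the right, with points more than 2-fold apart in red. Genes form a narrow band, with 1.77% beyond 2-fold, and rows scatter widely, with 30% beyond 2-fold.

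The same comparison over single rows of the table gave another result. Of 27780 rows at a mean of 1 CPM or more, 8334 (30%) were beyond 2-fold, Spearman's correlation was 0.737, and 2183 rows were at 0 in one library. Rows of genes with several rows were beyond 2-fold in 8247 of 26059 cases (31.6%), and rows that stand alone for their gene in 87 of 1721 (5.06%). At gene level the share beyond 2-fold was 2.69% for genes of 2 to 3 rows, 1.12% for 4 to 10 and 0.240% for 11 rows or more. Levels were not matched between these classes. Summed counts of genes were therefore far steadier between the libraries than the rows they were summed from.

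**Figure D4:**
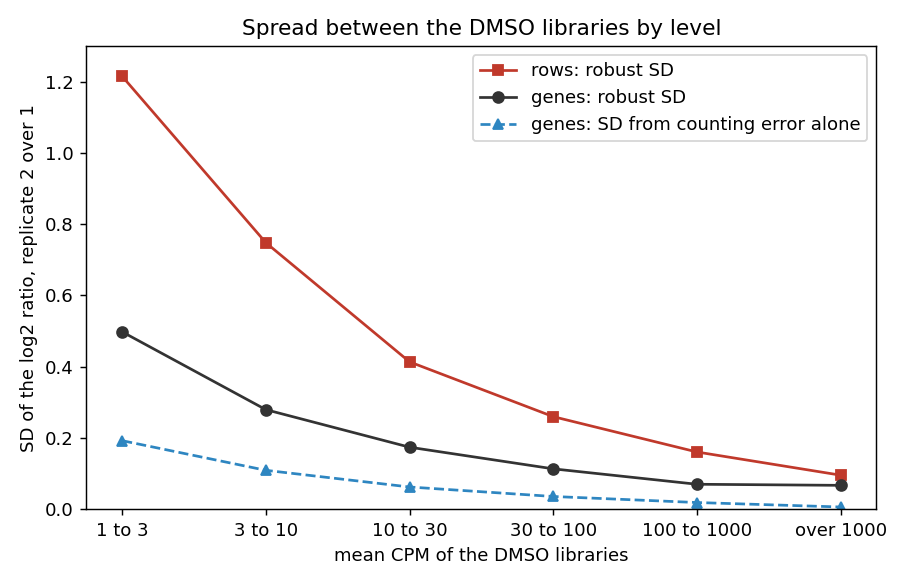
Robust SD of the log2 ratio of replicate 2 over replicate 1 by mean CPM, for rows (squares) and genes (circles), with the SD that counting error alone gives genes (triangles). At 1 to 3 CPM the values are 1.21 for rows, 0.50 for genes and 0.19 for counting error.

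Within genes, the split over rows differed even where the sum did not. Among 7036 genes of several rows at 10 CPM or more, the same row held the most counts in both libraries for 6016 (85.5%). The median overlap of the row shares was 93.0%, and for 1792 genes (25.5%) it was below 80%. For AKT2 the counts were 15366 and 15336, and the row with the most counts in replicate 1 held 74.0% of them there and 42.2% in replicate 2. Its FPKM was 46.8 in replicate 1 and 62.1 in replicate 2. For ACTG1 the leading row of replicate 1 held 72.0% there and 21.3% in replicate 2, while its FPKM was 3394 and 3372.

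KRT8 and EEF1A1 shifted too. The leading row of KRT8 in replicate 1 held 54.6% of its counts there and 4.41% in replicate 2. For EEF1A1, the leading row in replicate 1 held 37.7% of the counts there and 0.0271% in replicate 2. Its counts were 244682 and 210016. FPKM depends on the length of the row to which reads are given. In all, 174 of the 5489 genes at 10 CPM or more with CPM within 1.1-fold differed in FPKM by 1.25-fold or more. TUBA4A, at 89.5 and 115 FPKM from 11608 and 12076 counts, also moved more in FPKM than in counts.

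Most of the well-measured genes that differed shared sequence with another annotated gene. A gene was taken to share sequence where at least 20% of the sampled 31-base stretches of its longest transcript occur in another gene. At 10 CPM or more, 23 of the 26 genes beyond 2-fold that had a transcript in the annotation did so (88.5%), against 889 of all 7602 (11.7%). At 1 CPM or more it was 98 of 218 (45.0%), against 1824 of 12873 (14.2%). Several are read-through genes, annotated as joining a pair of neighbours whose exons they repeat.

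ISY1-RAB43 (chr3:129087575-129161036, minus strand) had 0 counts in replicate 1 and 1883 in replicate 2, at least 665-fold higher against a floor of 3 counts in a library, which covers counting error only. The genes it shares sequence with, RAB43, ISY1 and ENSG00000261512, summed to 199 CPM in replicate 1 and 166 CPM in replicate 2. All together had a log2 ratio of -0.01. HNRNPUL2-BSCL2 (chr11:62690275-62727384, minus strand) had 183 and 1615 counts and ABHD14A-ACY1 (chr3:51974706-51989183, plus strand) 90 and 813. Summed with their partners, the log2 ratios were -0.01 and 0.07. HNRNPUL2-BSCL2, at 26.8 CPM in replicate 2, was a small part of its sum of 295 CPM there, so its change could move that sum little.

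In the other direction, UPK3BL1 (chr7:102637025-102642791, minus strand), a uroplakin-like gene, had 1708 counts in replicate 1 and 72 in replicate 2. Its partners rose from 74.8 to 113 CPM, and ENSG00000267645, which overlaps it, had 101 and 2209 counts. RNASEK-C17orf49 had 2654 and 686 counts, RAB4B-EGLN2 2223 and 700 and POLR2J2, a copy of an RNA polymerase subunit gene, 615 and 191. Their log2 ratios of -1.87, -1.58 and -1.60 became -0.07, -0.04 and 0.28 when summed with partners. RNASEK-C17orf49, at 41.6 CPM in replicate 1, was a small part of its sum of 533 CPM, so that sum could move little in any case. The same holds for POLR2J2, at 9.64 CPM in a sum of 154 CPM.

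MATR3 (ENSG00000280987), one of a pair of IDs for the gene of a nuclear matrix protein, had 1835 and 761 counts, and with the other ID the log2 ratio was -0.07. HYPK, with SERF2 as its partner, had 1022 and 2448 counts, and ATP6V1G2-DDX39B, with DDX39B, 716 and 1694. Their sums had log2 ratios of 0.00 and 0.06. Both genes were small parts of these sums, HYPK at 40.6 of 826 CPM and ATP6V1G2-DDX39B at 28.1 of 213 CPM in replicate 2, so values near 0 say little about them. Of the 12 protein-coding genes farthest apart at a mean of 5 CPM or more, 6 in each direction, COL1A1 and CCDC142 had no partner. CCDC142 (chr2:74471986-74483408, minus strand) had 790 and 2054 counts, a log2 ratio of 1.46.

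**Figure D5:**
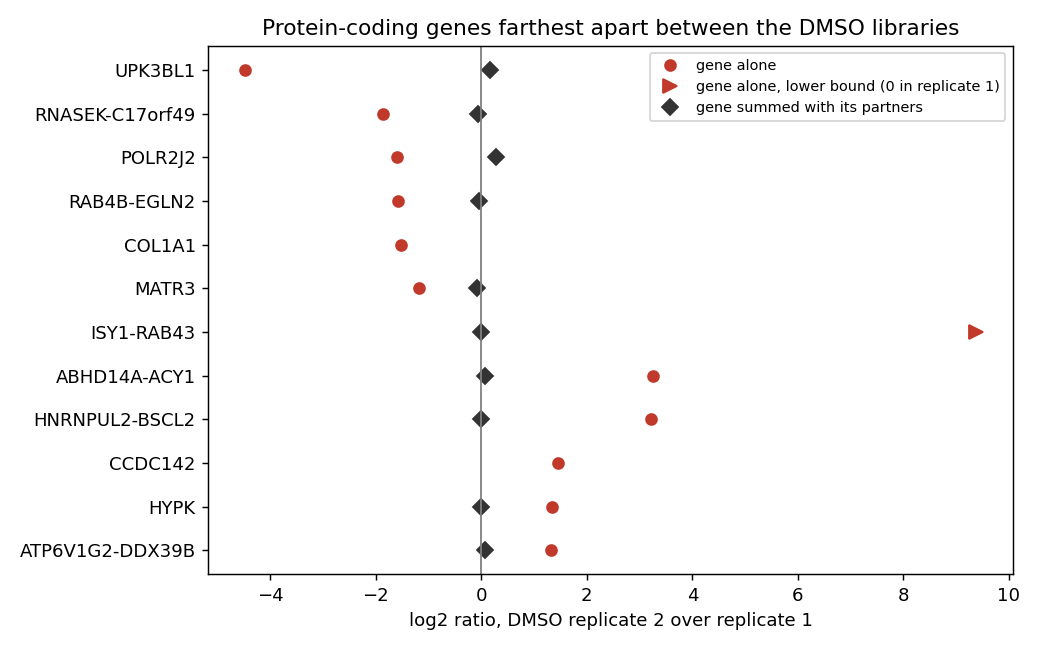
Log2 ratio of DMSO replicate 2 over replicate 1 for the 12 protein-coding genes farthest apart, alone (circles) and summed with the genes they share sequence with (diamonds). The arrowhead marks ISY1-RAB43, which had 0 counts in replicate 1, at its lower bound. The 10 sums lie between -0.07 and 0.28, and those in which the gene is a small part could move little.

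Genes without a symbol or outside the naming rule followed the same pattern, and were chosen after their values had been seen. ENSG00000284292 (chr7:99325879-99394653, plus strand), which spans ARPC1A and ARPC1B, had 0 and 4052 counts, at least 1431-fold higher in replicate 2 by the floor, and a log2 ratio of 0.03 with both. ENSG00000256646 (chr7:42909273-42932174, minus strand), which spans C7orf25 and PSMA2, had 1572 and 28 counts, and with them a log2 ratio of -0.04. ENSG00000167774 and NDUFA7, which lie on the same stretch of chr19, had 1610 and 116 counts and 1376 and 3083 counts. Their sum had a log2 ratio of 0.18. Such IDs cannot be read one by one, because reads of shared exons may be counted to either member.

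Over all gene IDs, these included, 4663 were at 0 in one library and above 0 in the other, with a median of 4 counts where present. A further 2078 were at 0 in both. For most of these IDs a call of presence rests on a few counts.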

How the data were processed

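RNA sequencing of total RNA gave 2 libraries of SW1990 cells after 48 h with DMSO. Tools named in the submitters' processing notes are featureCounts 2.0.1, StringTie 2.2.1, STAR and fastp, with GRCh38 as the build. The annotation, the use of strand and the handling of multiply matching reads are not given in the sources used. The authors deposited estimated counts as whole numbers, not normalized, in 107429 rows without transcript names. These belong to 25798 gene IDs, of which 14076 have several rows. Plain counts per gene had been assumed. Per the file headers, the second table holds FPKM per library, to 2 decimals, so that 5365 rows of replicate 1 have counts and an FPKM of 0. Rows were summed per gene ID in both tables.

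A name table held 25779 IDs, 20932 with a symbol, and GENCODE release 29 (GRCh38, 1-based) held 24725. CPM used TMM factors of these 2 libraries (edgeR 4.0.16, R 4.3.3). Log2 ratios used a prior count of 0.5, and a gene was called beyond 2-fold at a mean of 1 CPM or more. Spread by level is a robust SD. List medians were taken on log2(FPKM + 0.1) and converted back. Shared sequence is the percentage of 31-base stretches, every 5 bases of a gene's longest transcript, found in another gene, and partners share at least 10%. In a simulated library pair, 200 of 200 genes changed 4-fold and 0 of 7419 unchanged genes were beyond 2-fold. The simulation had a coefficient of variation of 0.1, and the genes scored were at 10 CPM or more. It held no sequence shared between genes and no shifts between rows. It therefore gives no error rate for lower levels or for those sources.

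Named genes were the 15 nuclear protein-coding genes of highest FPKM, the 4 highest members of each list and those at 0 in both libraries, up to 6 genes farthest apart in each direction at 5 CPM or more, and AKT1, AKT2 and MAP3K5. Some genes that the rule names are not reported here. Further list members were picked as examples once their values were known. The members and lists were chosen with earlier results of these data known. Alternatives covered the threshold, filter, scaling, prior count, pseudocount, row summing and each library alone.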

Additional observations from a re-analysis of the deposited data

How the results depend on the processing

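No paired analysis was possible because only 1 group, the DMSO libraries, is described. The count of genes at 1 FPKM or more in both libraries, 10340, fell to 1265 among IDs with 1 row. It was 12117 at a threshold of 0.5 FPKM, 8449 at 2 FPKM and 11578 after rescaling to TPM, and ran from 10717 to 10759 in 1 library alone. The count of genes beyond 2-fold, 230, was 6720 with no filter on low counts, 87 among IDs with 1 row and 8334 over rows not summed. With other scaling, prior count or FPKM in place of counts it lay between 226 and 256. Kept to members at 1 FPKM or more, the list medians were 33.6 FPKM for the ductal list, 7.62 for mesenchymal, 18.1 for classical, 34.4 for basal-like, 3.99 for lineage factors, 24.6 for keratins, 12.4 for drivers, 5.93 for surface antigens, 22.8 for secreted proteins, 92.0 for tubulins and 54.4 for the title kinases. With a pseudocount of 1 the median of the title kinases was 10.5 FPKM. Each list had at least 3 such members, which mucins and other cell types did not. With fewer members or rows kept, these values differ by construction. With 2 libraries, differences under the spread at a gene's level were not detectable, and nothing separates technical from biological spread.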

Other observations

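A few IDs annotated as lincRNA differed between the DMSO libraries. All genes annotated as lincRNA together took 1.15% of counts in replicate 1 and 1.71% in replicate 2. Of this, 3 IDs on the short arm of chromosome 21, ENSG00000280614, ENSG00000280800 and ENSG00000281181, took 0.772% and 1.25%, or 488098 and 761516 counts, and hold most of the class's difference. They were chosen after their values had been seen. ENSG00000281181 (GRCh38 chr21:8437629-8438551, minus strand) was at 2520 and 4181 FPKM, ENSG00000280614 (chr21:8393419-8394341) at 2420 and 3965 FPKM and ENSG00000280800 (chr21:8210384-8211306) at 2205 and 3592 FPKM. Their log2 ratios of CPM were 0.74, 0.72 and 0.71 in favour of replicate 2. All of the sampled sequence of each occurs in another annotated gene, so the 3 cannot be told apart by counting. Which RNA these reads come from was not tested, so the FPKM are not levels of lincRNA shown to be expressed.

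The 22 mitochondrial transfer RNA genes ran from 7.37 FPKM (MT-TW) to 14123 FPKM (MT-TN). Together they took only 0.420% and 0.367% of all counts, against 4.40% and 4.32% for the 13 mitochondrial protein-coding genes. FPKM is scaled to length, so the values of such short genes are not read beside those of longer ones. MT-TN, MT-TC, MT-TA and MT-TY, which lie next to each other on the minus strand, were each at 8708 FPKM or more in both libraries. The 13 mitochondrial protein-coding genes ran from 446 FPKM (MT-ND5) to 9391 FPKM (MT-CO2), with a median log2 ratio of 0.01 between the libraries.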
